A study of Mus musculus with 24 samples.

Results

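The measurements described here are the 6 arrays of C57BL/6J mouse lungs taken 24 h, 72 h and 14 d after bleomycin, with 2 arrays at each time, out of 24 arrays in the whole series. They were chosen by their titles alone, so no measured value entered the choice. The mice had received bleomycin by the intratracheal route at 1.5 U per kg, and each lung was harvested, frozen and profiled as total RNA on an Affymetrix mouse expression array. The other 18 arrays come from saline-treated C57BL/6J mice and from BALB/c mice given bleomycin or saline, at the same 3 times and again with 2 arrays a group. Age and sex are not given in the sources used here, and the labels do not say whether arrays a and b of a time come from separate animals, so each p-value measures only the spread between these arrays, which may be technical. The series asks why mouse strains differ in how readily their lungs scar. Here the question was narrower: which transcripts moved between 24 h and 72 h, which moved between 72 h and 14 d, and at which time each was highest. The values are deposited array intensities, and changes are differences of log2(intensity + 92) tested with limma and adjusted by the Benjamini-Hochberg method over 8710 probe sets. A gene was called at an adjusted p under 0.05, and counts of genes use 1 probe set for each of 6464 genes. Because 92 is added before the logarithm, a change of a dim gene is smaller on this scale than the ratio of its intensities.

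Bleomycin is a glycopeptide that binds metal and oxygen and cuts DNA, and in the lung it is widely used to produce injury followed by fibrosis. The injury is known to unfold in stages: damage to epithelium and endothelium with a p53 response, an inflammatory phase with recruited leukocytes, and a later phase in which macrophages accumulate and fibroblasts lay down collagen and other matrix under the influence of TGF-beta. C57BL/6J is commonly used as a fibrosis-prone strain and BALB/c as a more resistant one. In whole lung RNA, fewer cells of a type and less RNA per cell cannot be told apart, and this holds for every decrease and increase below.

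The 6 arrays had median intensities of 313 to 379 and were scaled alike, with a mean of 799.9 on each once the lowest 2% and the highest 2% of probe sets were left out. H2-Ea, an MHC class II gene that C57BL/6J mice do not transcribe, read 29.2 to 166 on the 6 arrays and 2917 to 6068 on the BALB/c bleomycin arrays, as those labels would have it. The saline arrays of 72 h read the other way round for this gene (48.3 to 89.5 on those labelled BALB/c, 3622 to 4821 on those labelled C57BL/6J), so saline values are given below only over both strains together. Array a of 14 d stood apart. Its Pearson correlation with array b of 14 d was 0.938, against 0.969 and 0.975 for the pairs of 24 h and 72 h, and with the 24 h and 72 h arrays it was 0.891 to 0.914, where array b of 14 d reached 0.940 to 0.954. Its ratio of the 3′ to the 5′ Actb control probe set was 0.623, against 0.0183 to 0.225 on the other 5 arrays. The Gapdh 3′ control read 12697 there, against 5943 to 7332 elsewhere, and the Gapdh 5′ control read 15931, against 7507 to 9027. Its ratio of the 3′ to the 5′ Gapdh control was thus 0.797, inside the range of 0.666 to 0.871 on the other 5 arrays. Its title also carries a suffix that the other 5 lack. Calls that rest on 14 d were therefore also made without this array.

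Between 24 h and 72 h few transcripts passed the test. Called were 39 probe sets (0.448% of 8710), 14 higher and 25 lower. They came to 13 genes higher (0.201%) and 18 lower (0.278%). Between 72 h and 14 d more passed, with 382 probe sets called (4.39%), 213 higher (2.45%) and 169 lower (1.94%). They came to 286 genes (4.42%), 156 higher (2.41%) and 130 lower (2.01%). Before adjustment, limma gave p below 0.05 for 1168 probe sets at the first step and 1769 at the second. A transcript that was not called may therefore still have changed. Over the whole interval from 24 h to 14 d, which shares its arrays with both steps, 755 probe sets were called (8.67%), 335 higher (3.85%) and 420 lower (4.82%) at 14 d. In genes these were 561 (8.68%), 253 higher (3.91%) and 308 lower (4.76%). After quantile normalization that last split turned to 366 probe sets higher and 295 lower. The median change over all genes was 0.00039 on the log2 scale at the first step, -0.052 at the second and -0.067 over both. Without array a of 14 d the count for 14 d against 72 h was 53 probe sets, 48 of them among the 382, and without array b it was 1139. Every one of the 382 kept its direction without array a, though they were called with array b included, which favours this. Leaving out 1 array of the first step left 4 to 9 probe sets called between 24 h and 72 h, so that step rests on all 4 of its arrays. The spread between arrays was taken over all 12 groups of the series. With the 6 arrays alone in the fit, 2 probe sets were called between 24 h and 72 h, 45 between 72 h and 14 d and 189 between 24 h and 14 d.

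**Figure D1:**
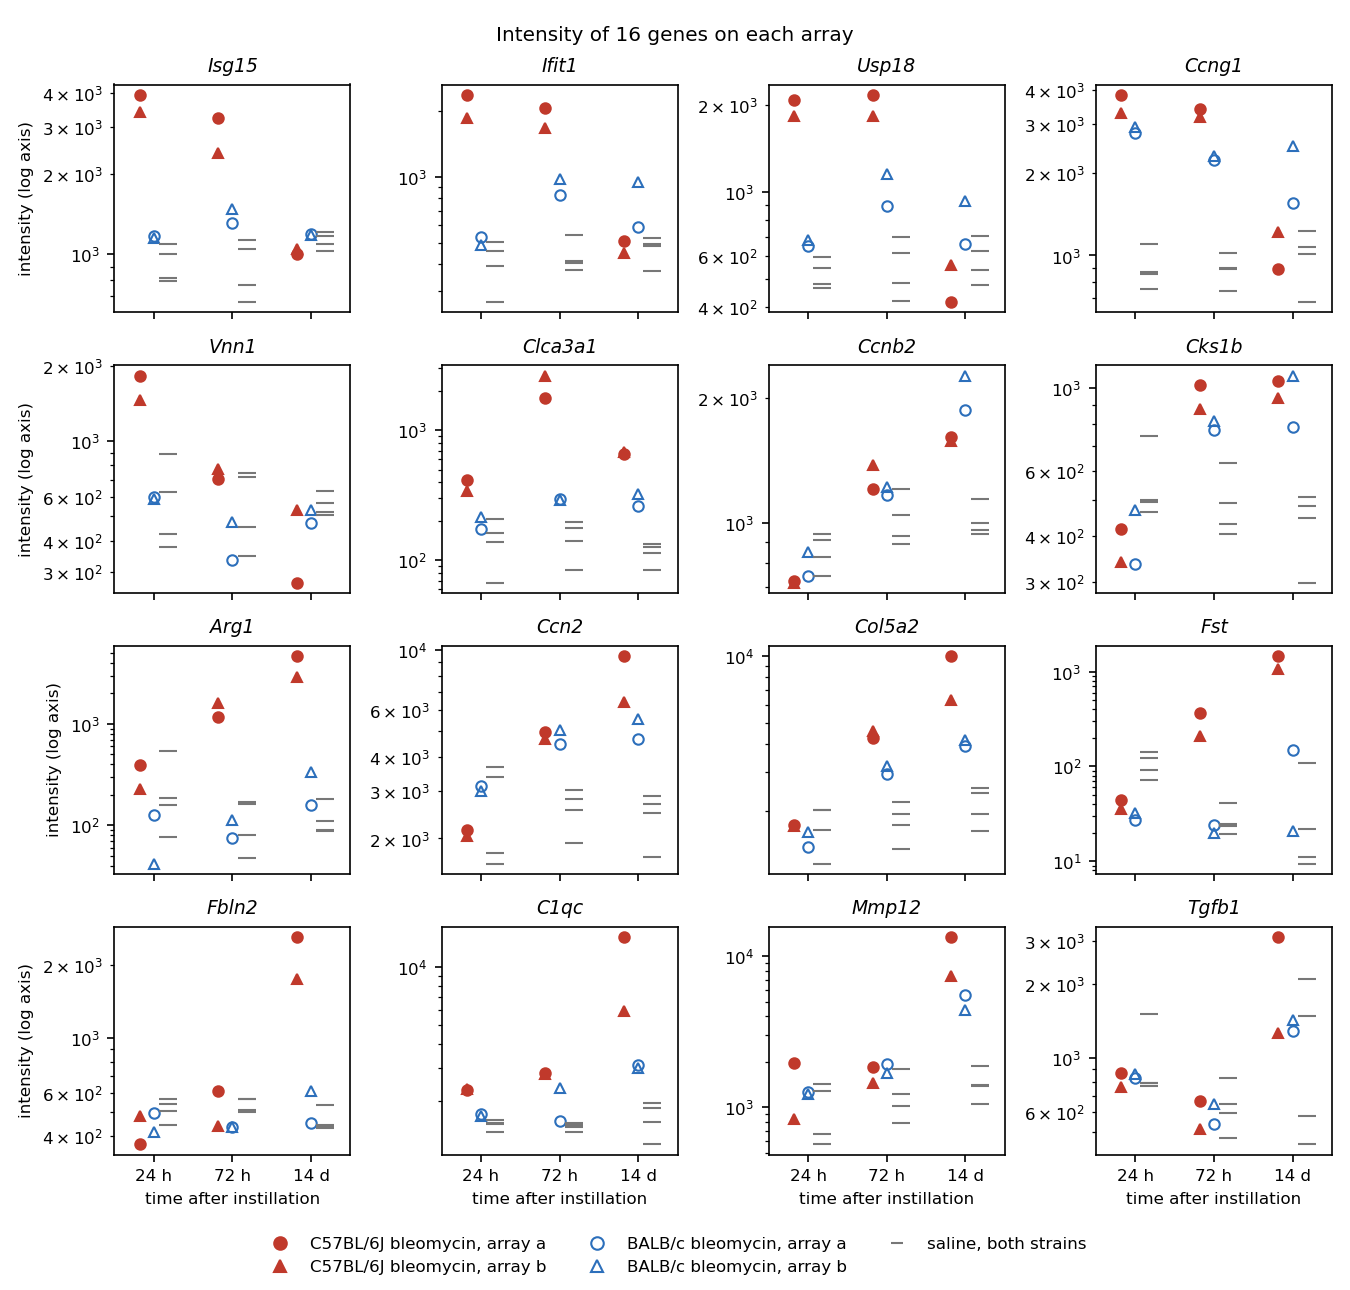
Intensity (log axis, scale differing between panels) of 16 genes against time after instillation. Red filled symbols are the C57BL/6J bleomycin arrays, blue open symbols the BALB/c bleomycin arrays (circle for array a, triangle for array b), and grey dashes the 4 saline arrays of each time. Isg15, Ifit1, Usp18 and Ccng1 are high at 24 h and 72 h and low at 14 d in C57BL/6J, Clca3a1 is highest at 72 h, and Fst, Fbln2, C1qc and Mmp12 are highest at 14 d.

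Part of the interferon response stood high at both 24 h and 72 h and was low by 14 d. Interferon-stimulated genes are switched on after interferons bind their receptors, and many carry the interferon-stimulated response element, abbreviated ISRE, near their start. Of 32 interferon response genes tested, 0 were called between 24 h and 72 h, and between 72 h and 14 d 12 were called lower and 0 higher, with a median change of -0.77 on the log2 scale against -0.052 for all genes. Over the whole interval 16 of the 32 were lower, where 4.76% of all genes were called lower, against 2.01% between 72 h and 14 d. Without array a of 14 d, 8 were still called lower between 72 h and 14 d and the median was -0.73.

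The promoters of 4 of the falling genes are shown because they carry the letters of this element close to the start of transcription. The letters searched were GAAA, then 2 bases of any kind, then GAAA, on both strands (on the opposite strand TTTC, 2 bases and TTTC), in the 250 bases before each start given by RefSeq on GRCm38.p6, and overlapping matches were allowed. Capitals mark 1 match in each sequence, and each sequence runs 5′ to 3′ along its gene.
Ifit1: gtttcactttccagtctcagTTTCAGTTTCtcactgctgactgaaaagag
Ifit3: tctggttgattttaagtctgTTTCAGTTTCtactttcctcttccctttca
Isg15: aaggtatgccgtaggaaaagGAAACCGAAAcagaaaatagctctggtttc
Rsad2: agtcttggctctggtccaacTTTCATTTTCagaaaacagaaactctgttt
The Ifit1 stretch lies at chr19:34640784-34640833 (plus strand) with the match 85 to 76 bases before the start and a further match upstream of it in lower case, and the Ifit3 stretch at chr19:34583387-34583436 (plus strand) with the match 122 to 113 bases before it. The Isg15 stretch lies at chr4:156200861-156200910 (minus strand) with the match 72 to 63 bases before the start, overlapped by a match on either side that is left in lower case. The Rsad2 stretch lies at chr12:26456543-26456592 (minus strand) with the match 120 to 111 bases before the start. Of the 32 interferon genes, 25 had a promoter in the RefSeq table and 12 of these (48.0%) held the letters, against 3.46% of 27025 genes in the table. Of the 12 genes called lower at 14 d, 10 were in the table and 5 held the letters. A match is a description of these letters only.

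Usp18, a protease that removes ISG15 from proteins and damps interferon receptor signalling, read 2081 and 1844 at 24 h, 2176 and 1842 at 72 h, and 415 and 557 at 14 d. The 24 h and 72 h arrays lie together, and both 14 d arrays are far below them. From 72 h to 14 d it fell by 1.87 (SE 0.17, adjusted p = 1.7e-05), and without array a of 14 d the adjusted p was 0.00067. Ifit1, which binds RNA with foreign 5′ ends, read 2378 and 1855 at 24 h, 2073 and 1670.4 at 72 h, and 511 and 450.2 at 14 d. Ifit1 fell by 1.77 (SE 0.21, adjusted p = 0.00022). Isg15, the ubiquitin-like protein that is joined to other proteins after interferon, read 3938 and 3407 at 24 h, 3221 and 2391 at 72 h, and 999 and 1049 at 14 d. Isg15 fell by 1.36 (SE 0.16, adjusted p = 0.00020). Ifit3, a partner of Ifit1, read 2452 and 2201 at 24 h, 2997 and 2472 at 72 h, and 561 and 864 at 14 d. Ifit3 fell by 1.83 (SE 0.25, adjusted p = 0.00050). Ifi35 and Irf9, a transcription factor of the interferon response, fell by 1.07 (SE 0.14, adjusted p = 0.00033) and by 1.22 (SE 0.17, adjusted p = 0.00051). For each of these 6 genes the 14 d arrays read below all 4 earlier arrays, and each remained called without array a of 14 d, with adjusted p between 0.00067 and 0.019. Saline arrays of all times read 417 to 702 for Usp18, 268 to 544 for Ifit1 and 664 to 1213 for Isg15, so the 14 d bleomycin values of Ifit1 and Isg15 lay inside the saline range while the 24 h and 72 h values lay above it. For Usp18, array a of 14 d, at 415, was just under the lowest saline array. Gm9706, which RefSeq lists as a pseudogene, fell by 1.98 (SE 0.23, adjusted p = 0.00020), the largest fall of the 6464 genes at this step. Its probe set carries a suffix that marks probes shared between related transcripts, as do those named here for Crct1, Mmp12, Kif22, Pdc and Gadd45b, so the transcript read is less certain for these genes.

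Targets of p53, the transcription factor activated by DNA breaks, gave fewer calls of the same course. Of 23 p53 target and DNA damage genes tested, 0 were called between 24 h and 72 h. Over the whole interval 6 were lower and 1 was higher, where 4.76% of all genes were called lower and 3.91% higher. The higher one was Plk3, named here after its values were seen. Between 72 h and 14 d, where 2.01% of all genes were called lower, 4 were lower and 0 higher, with a median of -0.13. Without array a 2 of these calls stood. Ccng1, a cyclin induced directly by p53, read 3838 and 3285 at 24 h, 3420.2 and 3195 at 72 h, and 890.0 and 1219 at 14 d. Its early values are level, and both 14 d arrays are far lower and inside the saline range of 677 to 1227. It fell by 1.58 (SE 0.21, adjusted p = 0.00046), and the adjusted p was 0.016 without array a. Ei24, an endoplasmic reticulum protein induced by p53, read 6044 and 5910.2 at 24 h, 5162 and 5444 at 72 h, and 2509.5 and 3275 at 14 d. Ei24 fell by 0.87 (SE 0.14, adjusted p = 0.0025). At 24 h and 72 h Ei24 stood above its saline range of 2698 to 3485. Perp, a p53 target in epithelial junctions, fell by 0.83 (SE 0.19, adjusted p = 0.021), and Gadd45b, a stress sensor related to Gadd45a, fell by 0.61 (SE 0.15, adjusted p = 0.025), and neither was called without array a. A second probe set of Gadd45b gave -0.21 at this step, not called (adjusted p = 0.53). Phlda3, an inhibitor of AKT induced by p53, read 4833 and 4669 at 24 h, 2614 and 2931 at 72 h, and 3154 and 2150.2 at 14 d, with its difference at 72 h against 24 h at -0.76 (SE 0.20, adjusted p = 0.088), not called, and its fall called only over the whole interval, by 0.84 (SE 0.20, adjusted p = 0.014). Cdkn1a, the p53-induced inhibitor of cyclin-dependent kinases, read 3086 and 4035 at 24 h, 2198 and 2238 at 72 h, and 3572 and 2064 at 14 d against 482 to 1476 on saline arrays, so each bleomycin array stood above every saline array. Its changes were -0.65 (SE 0.27, adjusted p = 0.30) and 0.28 (SE 0.27, adjusted p = 0.60), neither called, while a second probe set of Cdkn1a gave -1.14 at 14 d against 24 h (adjusted p = 0.028).

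A small group of genes was called higher at 72 h than at 24 h. The steepest was Clca3a1, a secreted protein of the chloride channel accessory family, which read 413 and 339.8 at 24 h, 1771 and 2641 at 72 h, and 663 and 684 at 14 d. The 72 h arrays are several times the 24 h arrays and the 14 d arrays fall between them, with saline arrays at 67.3 to 206. It rose by 2.27 (SE 0.25, adjusted p = 0.00018) and then fell by 1.56 (SE 0.25, adjusted p = 0.0026), and it was the only gene set apart with a peak at 72 h. On the BALB/c bleomycin arrays it read 174 and 215 at 24 h, 298 and 291 at 72 h, and 262 and 323 at 14 d, and the difference between the strains in the first step was 1.84 (SE 0.36, adjusted p = 0.42), not called. Arg1, arginase of alternatively activated macrophages and liver, read 396 and 226 at 24 h, 1168 and 1619 at 72 h, and 4652 and 2903 at 14 d. Arg1 rose by 1.90 (SE 0.40, adjusted p = 0.046) between 24 h and 72 h, a call that was lost in 12 of 17 alternatives, among them quantile normalization, cyclic loess and each of the 4 arrays of 24 h and 72 h left out, with adjusted p from 0.0041 to 0.37. Its further difference at 14 d against 72 h was 1.36 (SE 0.40, adjusted p = 0.063), not called, and over the whole interval it rose by 3.26 (SE 0.40, adjusted p = 0.00012). BALB/c bleomycin arrays read 41.9 to 333 for Arg1 at the 3 times, and the difference between strains in its first step was 1.79 (SE 0.57, adjusted p = 0.80), not called. Clca3a1 and Arg1 were the 2 members called of 18 tested on the list of type 2 and alternative activation genes at this step, where 0.201% of all genes were called higher. Clca1, a separate member of the same family on that list, was not called.

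Ccn2, Col5a2, Peg3 and Crct1 were also among the 13 genes called higher at 72 h. Of 39 matrix glycoprotein and elastic fibre genes 1 (Ccn2) was higher and 2 (Eln and Matn4) were lower at 72 h than at 24 h, with a median of -0.052, and of 27 other collagen and basement membrane genes 0 were called. Of all genes, 0.201% were called higher and 0.278% lower at this step. Ccn2, connective tissue growth factor, a matricellular protein induced by TGF-beta, read 2150.5 and 2043 at 24 h, 4977 and 4656 at 72 h, and 9466 and 6427 at 14 d. It climbed at each step, by 1.16 (SE 0.19, adjusted p = 0.0088) and then by 0.69 (SE 0.19, adjusted p = 0.048), and it was 1 of only 2 genes called higher at both steps. Its second call was lost in 12 of 17 alternatives, quantile normalization, cyclic loess and the fit without array a of 14 d among them, with adjusted p up to 0.50. The other gene was Nt5dc2, a nucleotidase domain protein, named here after its values were seen, whose second step was not called without array a (adjusted p = 0.44). Col5a2, a chain of type V collagen that nucleates collagen fibrils, read 1742 and 1723 at 24 h, 4268 and 4614 at 72 h, and 9947 and 6347 at 14 d. Col5a2 rose by 1.31 (SE 0.23, adjusted p = 0.018), and it was the only 1 of 23 fibrillar collagen and collagen processing genes called at this step, where the list's median was 0.28. Its second difference, at 14 d against 72 h, was 0.83 (SE 0.23, adjusted p = 0.053). Peg3, an imprinted zinc finger gene of stem and stromal cells, read 478 and 564 at 24 h, 1569 and 1329 at 72 h, and 2054 and 1749.8 at 14 d. Peg3 rose by 1.33 (SE 0.15, adjusted p = 0.00018), though 2 other probe sets of Peg3 gave uncalled values of 0.61 and 0.088. For Ccn2, Col5a2 and Peg3 both 72 h arrays are above both 24 h arrays. Crct1, a cysteine-rich epidermal protein, rose by 1.75 (SE 0.27, adjusted p = 0.0057) from 19.9 and 14.1 to 292 and 257.

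A few cell cycle genes rose between 24 h and 72 h. Of 78 tested, 3 were called higher at 72 h and 0 lower, where 0.201% of all genes were called higher. Of the 78, 59 had a positive change, and the median was 0.23 against 0.00039 for all genes. Between 72 h and 14 d 0 were called, with a median of -0.050. Over the whole interval 10 were higher and 0 lower, where 3.91% of all genes were called higher. Cks1b, a subunit of the cyclin-dependent kinases, read 418 and 341 at 24 h, 1019 and 882 at 72 h, and 1047 and 943 at 14 d. Cks1b rose by 1.15 (SE 0.22, adjusted p = 0.029). Kif22, a kinesin that moves chromosomes, read 456 and 433 at 24 h, 963 and 1204 at 72 h, and 892 and 1156 at 14 d. Kif22 rose by 1.12 (SE 0.21, adjusted p = 0.027). Ccnb2, cyclin B2 of the G2 to M transition, read 724 and 716 at 24 h, 1205 and 1377 at 72 h, and 1606 and 1578 at 14 d. Ccnb2 rose by 0.77 (SE 0.15, adjusted p = 0.029). In all 3 the arrays of 72 h and 14 d lie together above both 24 h arrays. Cdk1, the kinase that drives entry into mitosis, read 118 and 136 at 24 h, 325 and 283 at 72 h, and 479 and 502 at 14 d. Its first difference was 0.86 (SE 0.21, adjusted p = 0.078), not called, and it rose over the whole interval by 1.41 (SE 0.21, adjusted p = 0.00053). The same 3 genes rose in BALB/c bleomycin lungs from 24 h to 72 h, with Cks1b at 0.85 (SE 0.22, adjusted p = 0.034), Kif22 at 0.89 (SE 0.21, adjusted p = 0.025) and Ccnb2 at 0.54 (SE 0.15, adjusted p = 0.041). In saline lungs the step gave Cks1b -0.14 (SE 0.15, adjusted p = 0.67), Kif22 0.023 (SE 0.15, adjusted p = 0.96) and Ccnb2 0.23 (SE 0.10, adjusted p = 0.26), none of them called. The promoters of Cks1b and Kif22 are shown because both carry, at the same distance from the start, the letters of the cell cycle homology region, an element bound by complexes that repress or activate mitotic genes through the cycle. The letters searched were TTTGAA on both strands (TTCAAA on the opposite strand), capitals as before.
Cks1b: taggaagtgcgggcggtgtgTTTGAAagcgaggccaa
Kif22: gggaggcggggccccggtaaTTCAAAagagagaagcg
Both matches lie 17 to 12 bases before the start on GRCm38.p6, in chr3:89418292-89418328 (minus strand) and chr7:127042421-127042457 (minus strand), and Ccnb2 has a match 167 to 162 bases before its start. So short a run occurs often: 18.3% of 27025 genes held it within 250 bases, against 19 of the 64 matched cell cycle genes (29.7%).

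Many of the genes that fell between 24 h and 72 h were also low at 72 h in other groups. Lfng, a glycosyltransferase that modifies Notch receptors, read 483 and 379 at 24 h, 45.5 and 37.0 at 72 h, and 411 and 313 at 14 d. It fell by 1.97 (SE 0.22, adjusted p = 0.00018) and then rose by 1.76 (SE 0.22, adjusted p = 0.00030), and both 72 h arrays are below every other array of the 6. On the BALB/c bleomycin arrays of 72 h it read 117 and 129.6, against 450.3 and 528 at 24 h, and on the 4 saline arrays of 72 h 108 to 229.6. Snw1, a splicing and transcription cofactor, read 981 and 1150.2 at 24 h, 269.6 and 336 at 72 h, and 611 and 886 at 14 d. Snw1 fell by 1.55 (SE 0.30, adjusted p = 0.029), with 274 to 681 on the saline arrays of 72 h and 405 and 419.6 on the BALB/c bleomycin arrays. The 72 h arrays of the other groups are thus low as well for both genes. A dimmer second probe set of Snw1 showed no trough at 72 h, with -0.36 at the first step and -0.39 at the second, neither called. Ciapin1, an iron-sulfur cluster assembly factor, read 204 and 379 at 24 h, 53.2 and 33.8 at 72 h, and 29.2 and 48.0 at 14 d. Ciapin1 fell by 1.47 (SE 0.26, adjusted p = 0.018). Pdc, the retinal protein phosducin, read 226 and 198 at 24 h, 9.49 and 26.0 at 72 h, and 108 and 62.5 at 14 d. Pdc fell by 1.47 (SE 0.23, adjusted p = 0.0063). Both are dim, and the 24 h arrays are the highest. Tie1, an endothelial receptor kinase, read 3513 and 3690.4 at 24 h, 1474 and 1418 at 72 h, and 1575 and 2596 at 14 d. Tie1 fell by 1.26 (SE 0.21, adjusted p = 0.011), with -0.34 on a second probe set, not called. Gpx2, an epithelial glutathione peroxidase, read 2212 and 2055 at 24 h, 777 and 866 at 72 h, and 967 and 983 at 14 d. Gpx2 fell by 1.29 (SE 0.27, adjusted p = 0.046), and BALB/c bleomycin lungs moved alike, by -1.43 (SE 0.27, adjusted p = 0.011).

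Of the 18 genes lower at 72 h than at 24 h, all 18 had a negative change in saline lungs of both strains pooled and 7 were called lower there, where 1.25% of all genes were called lower. In BALB/c bleomycin lungs 12 of the 18 were called lower (3.5% of all genes). The 7 were Lfng, Snw1, Pdc, Ciapin1, Matn4, Tnp1 and 1700037H04Rik. Matn4, a matrilin of cartilage and other matrices, read 1679.8 and 1717 at 24 h, 812 and 917 at 72 h, and 1773 and 2038 at 14 d on the C57BL/6J bleomycin arrays, with 1539 to 1835 on the saline arrays of 72 h. Of the 13 genes higher at 72 h, 0 were called in saline lungs (0.572% of all genes called higher), where 10 had a positive change, and 5 were called higher in BALB/c bleomycin lungs (1.39%). The 4 genes set apart with a trough at 72 h, Lfng, Snw1, Matn4 and 1700037H04Rik, were all among the 7. Beyond the time itself, the sources used here do not give what the 72 h arrays of all groups share, and that and time cannot be told apart. Among the other 11 falling genes, Vnn1, a pantetheinase, read 1831 and 1465 at 24 h, 704 and 778 at 72 h, and 271 and 532 at 14 d and had saline and BALB/c bleomycin changes of -0.019 (SE 0.16, adjusted p = 0.97) and -0.48 (SE 0.22, adjusted p = 0.20). Its saline arrays read 349 to 891, so the 24 h arrays are above the saline range. Eln, tropoelastin, gave no single direction: 1 probe set fell by 2.11 (SE 0.44, adjusted p = 0.046) from 4958 and 6629.8 to 1479.8 and 1067, and the other read 788 and 678 at 24 h, 1241 and 905 at 72 h and 6118 and 3784 at 14 d. That other probe set was not called at the first step and was called higher at the second, by 2.09 (adjusted p = 0.0033).

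**Figure D2:**
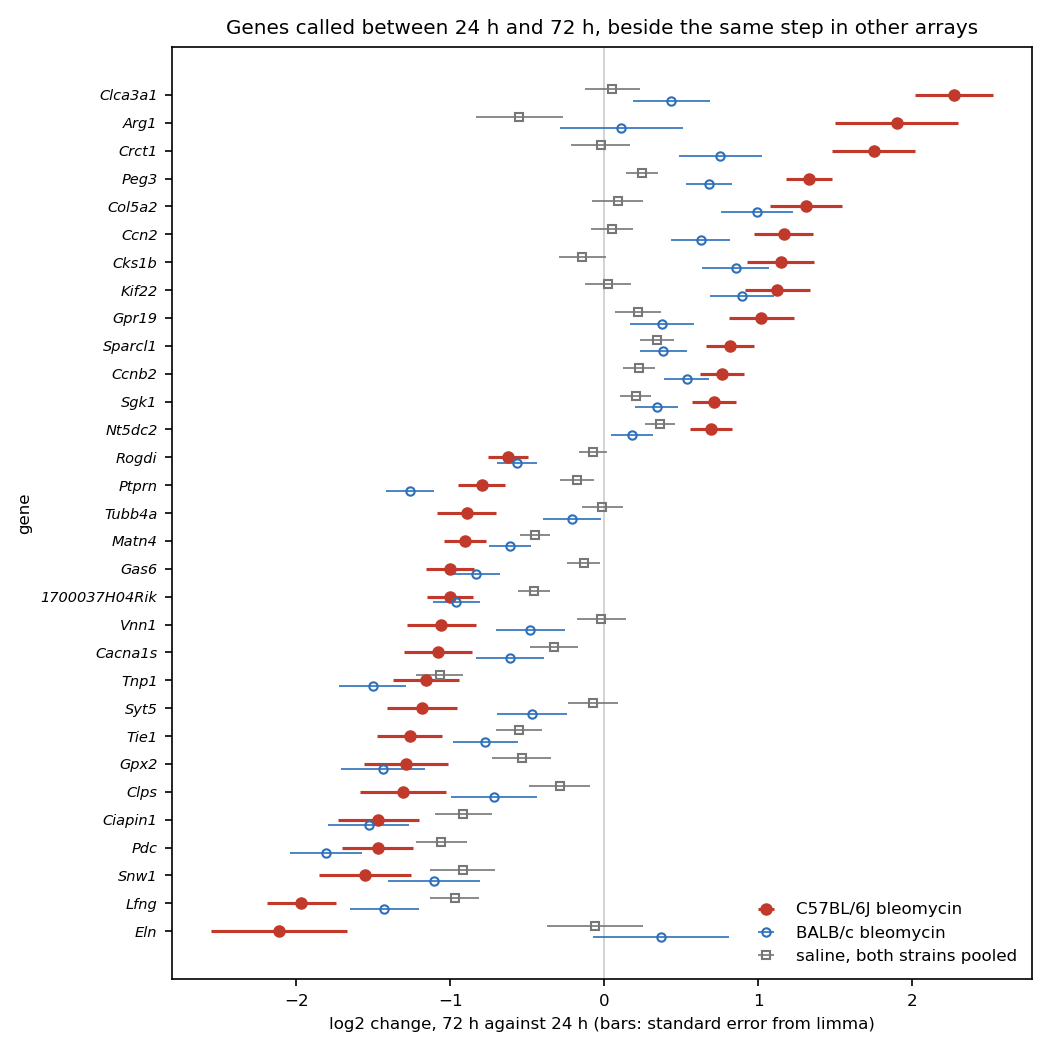
Log2 change from 24 h to 72 h (horizontal axis, bars are limma standard errors) of the 31 genes called in C57BL/6J bleomycin lungs (red), with the same step in BALB/c bleomycin lungs (blue) and in saline lungs of both strains pooled (grey). The 13 rising genes have saline changes near 0 for the most part, from -0.55 for Arg1 to 0.36 for Nt5dc2, and all 18 falling genes have saline changes below 0, down to -1.07 for Tnp1.

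By 14 d some genes of macrophages, complement and matrix had risen, and the summed intensity of the macrophage genes was highest on array a. Of 44 macrophage genes tested, 10 were called higher than at 72 h and 1 lower, with a median of 0.54, and 15 were higher than at 24 h. Of all genes, 2.41% were called higher than at 72 h and 3.91% higher than at 24 h. The summed intensity of these 44 genes was 102744 and 106267 at 24 h, 114978 and 115413 at 72 h, and 221067 and 134632 at 14 d, so array a of 14 d stands above array b. Without that array 0 of the 44 were called between 72 h and 14 d and the median was 0.19, and 5 were called against 24 h. Mmp12, the macrophage elastase, read 1962 and 832 at 24 h, 1862 and 1454 at 72 h, and 13439.5 and 7365 at 14 d. Both 14 d arrays are above all earlier arrays, and it rose by 2.53 (SE 0.40, adjusted p = 0.0022), with 2.22 (adjusted p = 0.0033) on a second probe set and an adjusted p of 0.053 for the first without array a. Tyrobp, the adaptor of myeloid activating receptors, read 2429 and 2049 at 24 h, 1801 and 1932 at 72 h, and 7588 and 3866 at 14 d. Tyrobp rose by 1.49 (SE 0.28, adjusted p = 0.0062). Mpeg1, perforin-2 of macrophages, read 2224 and 2386 at 24 h, 3076 and 2991 at 72 h, and 10984 and 6071 at 14 d. Mpeg1 rose by 1.40 (SE 0.28, adjusted p = 0.0086). For both genes the 2 arrays of 14 d are above all 4 earlier arrays, and neither was called without array a.

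Ctsb, Ctsk and Ctsl, cathepsins of lysosomes, rose at the same step. Ctsb read 4033 and 4688 at 24 h, 4061 and 4215 at 72 h, and 12914 and 7773 at 14 d. Ctsb rose by 1.26 (SE 0.23, adjusted p = 0.0050). Ctsk, the collagen-degrading cathepsin of osteoclasts and activated macrophages and fibroblasts, read 719 and 522 at 24 h, 842 and 913 at 72 h, and 2819.8 and 1962 at 14 d. Ctsk rose by 1.34 (SE 0.24, adjusted p = 0.0050). Ctsl read 2054 and 2347 at 24 h, 2593 and 2811 at 72 h, and 7904 and 4013 at 14 d. Ctsl rose by 1.04 (SE 0.21, adjusted p = 0.011). In each of the 3 both 14 d arrays are above all earlier arrays and above the saline range, which reached 6887, 1108 and 2899.5, and other probe sets of Ctsb gave 1.16 (called), 0.59 and -0.53 (not called). Timp2, an inhibitor of metalloproteases, read 1628 and 1747 at 24 h, 965 and 1010.3 at 72 h, and 2534 and 2856 at 14 d. Timp2 rose by 1.37 (SE 0.20, adjusted p = 0.00078), from a 72 h level that was also low on the 72 h saline arrays (1164 to 1414) and BALB/c bleomycin arrays (924 and 995). Of 32 proteases and inhibitors tested, 7 were higher at 14 d than at 72 h and 0 lower, where 2.41% of all genes were called higher. Only 1 of these 7 calls, Timp2, held without array a.

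The 3 chains of C1q, the recognition molecule of the classical complement pathway made largely by macrophages, all rose. C1qc read 2298 and 2310.2 at 24 h, 2826 and 2772 at 72 h, and 14345 and 5887 at 14 d. C1qc rose by 1.68 (SE 0.26, adjusted p = 0.0022). C1qa read 2150.4 and 2072 at 24 h, 2865 and 3199 at 72 h, and 9842 and 5458 at 14 d. C1qa rose by 1.25 (SE 0.26, adjusted p = 0.013). C1qb read 1364 and 1343 at 24 h, 2127 and 2807 at 72 h, and 11211 and 4216 at 14 d. C1qb rose by 1.46 (SE 0.33, adjusted p = 0.019), while a dimmer probe set of C1qb gave -0.28, not called. For each of the 3 chains array a is above array b, and array b is in turn above every 24 h and 72 h array. C1qc alone of the 3 was called without array a (adjusted p = 0.016). Saline arrays read at most 1950.3 for C1qc, 1858 for C1qa and 1236 for C1qb, below all 6 bleomycin arrays. With Itgb2, the beta 2 integrin that forms complement receptor 3, they were the 4 of 16 complement genes called higher, and 0 were lower. Of all genes, 2.41% were called higher at this step.

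Several matrix genes rose by 14 d, and more of them passed the test over the whole interval than at the second step. Among 23 fibrillar collagen and processing genes 5 were higher at 14 d than at 72 h and 12 were higher than at 24 h, with 0 lower in either comparison and medians of 0.51 and 0.54. Of all genes, 2.41% and 3.91% were called higher in these 2 comparisons. Col1a2, a chain of type I collagen, read 2477 and 3442 at 24 h, 5075 and 4545 at 72 h, and 11156 and 7662 at 14 d. Its 72 h arrays are already above its 24 h arrays, and it rose by 0.93 (SE 0.19, adjusted p = 0.012) at the second step and by 1.63 (SE 0.19, adjusted p = 9.2e-05) over both, while a second probe set gave -0.23, not called. Bmp1, the protease that trims procollagen, rose by 0.73 (SE 0.17, adjusted p = 0.022), with 0.58 on a second probe set, not called. Of 27 other collagen and basement membrane genes 5 were higher at 14 d than at 72 h and 0 lower. Col6a3, of the microfibrillar type VI collagen, read 2888 and 2503 at 24 h, 4383 and 4261 at 72 h, and 11296 and 8098 at 14 d. Col6a3 rose by 1.13 (SE 0.24, adjusted p = 0.013). Lamb3, a laminin chain of epithelial basement membrane, read 1566 and 1552 at 24 h, 1273 and 1718 at 72 h, and 3665 and 3211 at 14 d. Lamb3 rose by 1.16 (SE 0.16, adjusted p = 0.00046), with 0.81 on a second probe set, not called. Both genes have their 14 d arrays above all earlier and all saline arrays. Col7a1, the anchoring fibril collagen, rose by 0.80 (SE 0.18, adjusted p = 0.018). Without array a the fibrillar list had 0 calls at the second step and 5 over both steps. Lamb3 alone of the other collagen and basement membrane genes kept its call at the second step, at an adjusted p of 0.016.

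Of 39 matrix glycoprotein and elastic fibre genes, 9 were called higher and 1 lower between 72 h and 14 d, where 2.41% of all genes were called higher. Of those rises 3, of Fbln2, Matn4 and Thbs3, held without array a (Thbs3 is named after its values were seen). Of these 3, only Fbln2 was also called higher at 14 d than at 24 h. Matn4 was set apart with a trough at 72 h, and the mean of Thbs3 was highest at 24 h. Fbln2, fibulin-2, which links elastic fibres to basement membrane, read 369 and 481 at 24 h, 607 and 438 at 72 h, and 2591 and 1739.6 at 14 d against 429 to 567 on saline arrays. The 4 early arrays lie in or near the saline range and both 14 d arrays are far above it. It rose by 1.86 (SE 0.20, adjusted p = 7.4e-05), and at an adjusted p of 0.0025 without array a. Tnc, tenascin-C of healing tissue, read 386 and 323 at 24 h, 1008 and 612 at 72 h, and 1984 and 1643 at 14 d. Tnc rose by 1.11 (SE 0.28, adjusted p = 0.035), with 0.31 on a dimmer second probe set, not called. Igfbp3, which carries insulin-like growth factors, read 256 and 177 at 24 h, 284 and 255 at 72 h, and 2339.8 and 751 at 14 d. Igfbp3 rose by 1.99 (SE 0.39, adjusted p = 0.0086), with 1.84 on a second probe set, not called (adjusted p = 0.053). Its 4 early arrays are below every saline array, which read 426 to 1361, and array b of 14 d is inside that range. Igfbp2, a sister protein also made by alveolar type 1 cells, read 3404 and 3322 at 24 h, 2242 and 3769.7 at 72 h, and 6579 and 6887 at 14 d. Igfbp2 rose by 1.18 (SE 0.27, adjusted p = 0.018).

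Of 42 genes on the TGF-beta and growth factor list, 4 rose at the second step (Fst, Tgfb1, Fstl1 and Ccn2) and 0 fell, where 2.41% of all genes were called higher. Fst, follistatin, which binds and neutralises activins, read 44.2 and 35.6 at 24 h, 366 and 208 at 72 h, and 1453 and 1072 at 14 d. It was at or under 44.2 at 24 h, where saline arrays read 9.45 to 141, was higher at 72 h by 1.49 (SE 0.34, adjusted p = 0.060), not called, and rose by 1.86 (SE 0.34, adjusted p = 0.0052) at the second step and by 3.35 (SE 0.34, adjusted p = 1.9e-05) over both. BALB/c bleomycin arrays read 27.0 and 32.4 at 24 h, 24.2 and 19.8 at 72 h, and 149.8 and 20.9 at 14 d. Both 14 d arrays of C57BL/6J are thus far above every other array for this gene. Tgfb1, a profibrotic TGF-beta, read 869 and 761 at 24 h, 667 and 511 at 72 h, and 3115 and 1266 at 14 d. Tgfb1 rose by 1.63 (SE 0.32, adjusted p = 0.0086). Its array b value is under the highest saline array, as saline arrays read 444 to 2089.7, and the call was lost without array a (adjusted p = 0.18). Fstl1, a follistatin-like glycoprotein of mesenchyme, read 818 and 885 at 24 h, 1248 and 1022 at 72 h, and 2189.5 and 1759 at 14 d. Fstl1 rose by 0.75 (SE 0.17, adjusted p = 0.021). Without array a none of the 4 was called at the second step, while Fst, Ccn2 and Fstl1 were called against 24 h at adjusted p of 0.0010, 0.00073 and 0.021.

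Of 28 cytokine and chemokine genes, 0 were called between 24 h and 72 h, 1 was higher at 14 d than at 72 h, and 1 was higher and 3 were lower at 14 d than at 24 h, where 3.91% of all genes were called higher and 4.76% lower. The 3 lower were Ccl22, Il16 and Cxcl1, and 0 of these were called without array a. Of 18 type 2 and alternative activation genes, 2 were higher (Ccl8 and Socs1) and 1 lower (Clca3a1) at 14 d than at 72 h, where 4.42% of all genes were called in either direction. Over the whole interval 4 of the 18 were higher and 2 lower, against 8.68% of all genes in either direction, and 2 and 1 without array a. The chemokine that was higher in both comparisons was Ccl8, a chemokine for monocytes and type 2 cells, which read 322 and 188 at 24 h, 470.5 and 494 at 72 h, and 1264 and 876 at 14 d. Ccl8 rose by 0.9972 (SE 0.27, adjusted p = 0.046) and by 1.75 (SE 0.27, adjusted p = 0.00075) over the whole interval. All 6 arrays are above the saline range of 30.3 to 174, and without array a the rise against 24 h was called (adjusted p = 0.024) and that against 72 h was not. Chil3, a chitinase-like protein of alternatively activated macrophages, read 4747 and 4442 at 24 h, 7714 and 6492 at 72 h, and 15559.6 and 8905 at 14 d. Chil3 rose over the whole interval by 1.34 (SE 0.26, adjusted p = 0.0045). Socs1, an inhibitor of cytokine receptors, read 701 and 445 at 24 h, 330.1 and 260.1 at 72 h, and 725 and 513 at 14 d. Socs1 rose at the second step by 0.87 (SE 0.22, adjusted p = 0.037) from a low level at 72 h. Neither Chil3 nor Socs1 was called without array a.

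Genes for MHC class II presentation were called in both directions at 14 d against 24 h. The lower ones were H2-Oa and Flt3 (Flt3 is named after its values were seen). Of 17 genes for MHC class II presentation 1 was higher at 14 d than at 72 h, and against 24 h 4 were higher and 2 lower. Of all genes, 2.41% were called higher than at 72 h, and 3.91% higher and 4.76% lower than at 24 h. Ctss, the cathepsin that trims the invariant chain, read 5576 and 4743 at 24 h, 7146 and 8686 at 72 h, and 17946 and 9323 at 14 d. Ctss rose over the whole interval by 1.32 (SE 0.27, adjusted p = 0.0059). Lgmn, an asparagine-specific lysosomal protease, read 3029 and 2172 at 24 h, 3759 and 2907 at 72 h, and 6921 and 5208 at 14 d. Lgmn rose over it by 1.20 (SE 0.24, adjusted p = 0.0053). Both have 14 d arrays above every saline array. H2-DMb1, which loads peptides on class II molecules, read 1841 and 1360.5 at 24 h, 1373 and 1503 at 72 h, and 3055 and 2493 at 14 d. H2-DMb1 rose by 0.90 (SE 0.21, adjusted p = 0.021) at the second step. H2-Oa, which restrains this loading in B cells, read 484 and 431 at 24 h, 343 and 353 at 72 h, and 178 and 198 at 14 d. H2-Oa fell over the whole interval by 0.97 (SE 0.21, adjusted p = 0.010). None of the 4 was called without array a of 14 d.

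Of 23 myofibroblast and smooth muscle genes, 0 were called at either step. At 14 d against 24 h 2 were higher and 2 lower, where 3.91% of all genes were called higher and 4.76% lower, and 0 were called without array a. Pdgfrb, a receptor of pericytes and fibroblasts, read 522 and 499.8 at 24 h, 1065 and 899 at 72 h, and 1179 and 1035 at 14 d. Pdgfrb rose over the whole interval by 0.99 (SE 0.19, adjusted p = 0.0038), with a first step of 0.83 (SE 0.19, adjusted p = 0.060), not called. Tagln, an actin-binding protein of smooth muscle, read 3547 and 3429 at 24 h, 4910.4 and 3428 at 72 h, and 7978 and 4788 at 14 d. Tagln rose over it by 0.81 (SE 0.22, adjusted p = 0.030), while Cnn1, calponin of the contractile apparatus, read 832 and 845 at 24 h, 607 and 299.7 at 72 h, and 429 and 504 at 14 d. Cnn1 fell by 0.74 (SE 0.21, adjusted p = 0.040). Pdgfrb is level between 72 h and 14 d, and Tagln is highest on array a of 14 d.

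Among the 8 genes with the largest rise at the second step, H1f10, a linker histone, read 170.2 and 80.5 at 24 h, 51.2 and 145 at 72 h, and 1193 and 736 at 14 d. H1f10 rose by 2.49 (SE 0.47, adjusted p = 0.0067). Slc27a1, a fatty acid transporter, read 78.9 and 86.7 at 24 h, 56.2 and 67.6 at 72 h, and 795 and 253 at 14 d. Slc27a1 rose by 1.85 (SE 0.39, adjusted p = 0.014). In both genes the early arrays lie together at low levels and array a of 14 d is the highest. Rraga, a GTPase that recruits mTORC1 to lysosomes, read 1674 and 1118 at 24 h, 722 and 629.6 at 72 h, and 3151 and 2187 at 14 d. Rraga rose by 1.83 (SE 0.29, adjusted p = 0.0024), and Dynll2, a dynein light chain, read 1198 and 770.0 at 24 h, 287 and 533 at 72 h, and 2171 and 3551 at 14 d. Dynll2 rose by 2.56 (SE 0.44, adjusted p = 0.0036). These last 2 rose in saline lungs as well, by 1.55 (SE 0.21, adjusted p = 0.0016) and 1.57 (SE 0.31, adjusted p = 0.0082), and a second Dynll2 probe set gave -0.21 in C57BL/6J bleomycin lungs, not called. In saline lungs 24 of the 156 rising genes were called higher over the same step (2.92% of all genes) and 11 of the 130 falling genes lower (1.83%). In BALB/c bleomycin lungs 21 of the 156 were called higher (1.16%) and 3 of the 130 lower (1.49%).

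**Figure D3:**
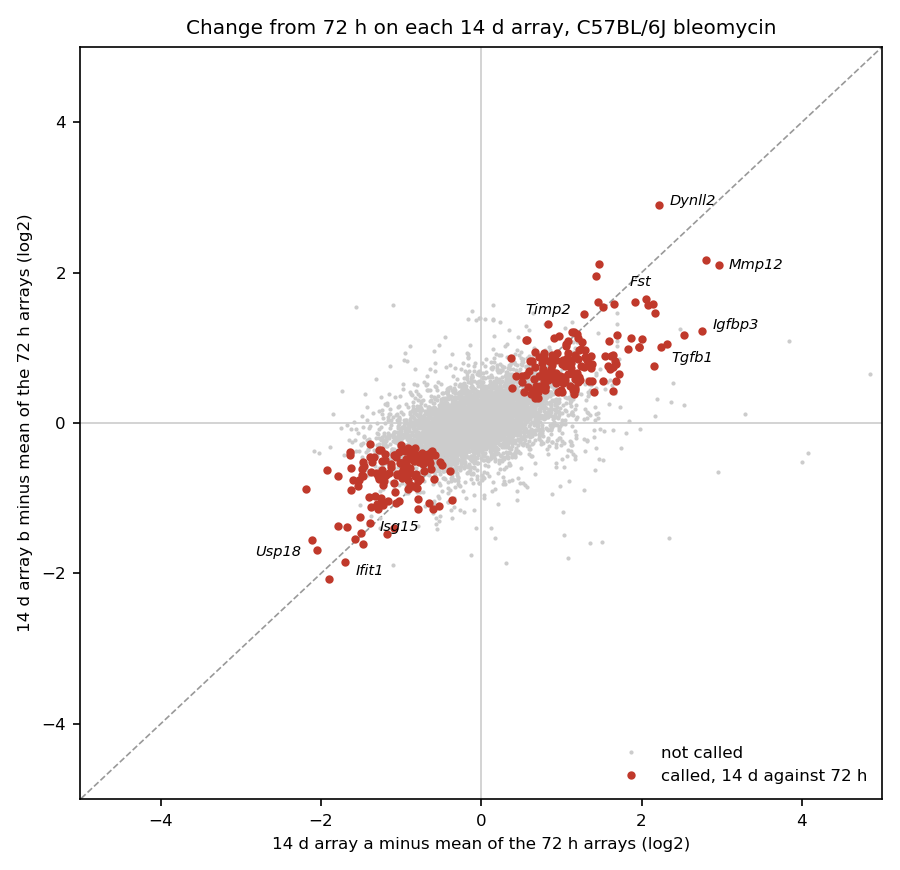
For each of 6464 genes, the log2 difference of array a (horizontal) and of array b (vertical) of 14 d from the mean of the 72 h arrays in C57BL/6J bleomycin lungs. Red points are the 286 called genes and the dashed line marks equal change. All 156 rising and all 130 falling genes move the same way on both arrays, but they were called with both arrays included, which favours this. Of them 124 and 112 move further on array a. The medians are 1.08 against 0.76 for the rising and -1.05 against -0.66 for the falling genes.

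Genes that fell by 14 d outside the interferon and p53 lists included several of endothelium. Of 43 endothelial genes 5 were lower at 14 d than at 72 h and 0 higher, where 2.01% of all genes were called lower. The median was -0.26, and the summed intensity of the list was 108007 and 119670 at 24 h, 115602 and 114038 at 72 h, and 96576 and 100132 at 14 d. Car4, the carbonic anhydrase of alveolar capillaries, read 3619 and 2929 at 24 h, 2662 and 2586 at 72 h, and 1669 and 1682 at 14 d. Car4 fell by 0.62 (SE 0.16, adjusted p = 0.039), with -0.47 on a second probe set, not called. Lyve1, of lymphatic vessels and some macrophages, read 2084 and 2331 at 24 h, 3959 and 4152 at 72 h, and 2298 and 1785 at 14 d. Lyve1 fell by 0.97 (SE 0.19, adjusted p = 0.0085), which alone of the 5 was called without array a (adjusted p = 0.025). Its 72 h arrays are above all the others, and its first step, at 0.85 (SE 0.19, adjusted p = 0.056), was not called. Edn1, the vasoconstrictor endothelin-1, read 849 and 883 at 24 h, 1633 and 1224 at 72 h, and 553 and 615 at 14 d. Edn1 fell by 1.16 (SE 0.21, adjusted p = 0.0056), with -0.23 on a second probe set, not called. Edn1 too is highest at 72 h, with a first step of 0.65 (SE 0.21, adjusted p = 0.17). Hpgd, which degrades prostaglandins, read 5241 and 5581 at 24 h, 5889.9 and 5767 at 72 h, and 1467 and 3751 at 14 d. Hpgd fell by 1.27 (SE 0.27, adjusted p = 0.015). Tex2 and Mapt, the microtubule-binding protein tau, were also among the 8 steepest falls, by 1.54 (SE 0.29, adjusted p = 0.0063) and 1.53 (SE 0.33, adjusted p = 0.015), and neither was called without array a.

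Marker lists of other lung cell types gave few calls at either step, where 0.48% and 4.42% of all genes were called. Of 19 alveolar type 2 genes 0 were called in either step, of 17 alveolar type 1 genes 2 were higher at 14 d than at 72 h, of 33 injured epithelium genes 0 were called, and of 20 airway genes 1 was lower at 14 d. Lists of cells outside the lung proper gave 0 calls of 12 red blood cell genes at either step, 1 of 35 heart and skeletal muscle genes lower at 72 h, 1 of 12 fat cell genes higher at 14 d and 2 of 16 mesothelial genes higher at 14 d. Summed intensities of the alveolar type 2 list were 68889 and 91847 at 24 h, 72859 and 72733 at 72 h, and 124061 and 68086 at 14 d, and those of the fat cell list 17629 and 19834, 18028 and 20991, and 32762 and 19119, so array a of 14 d was also the highest of the 6 for these lists. The part of cell composition in the rises on array a was not tested.

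**Figure D4:**
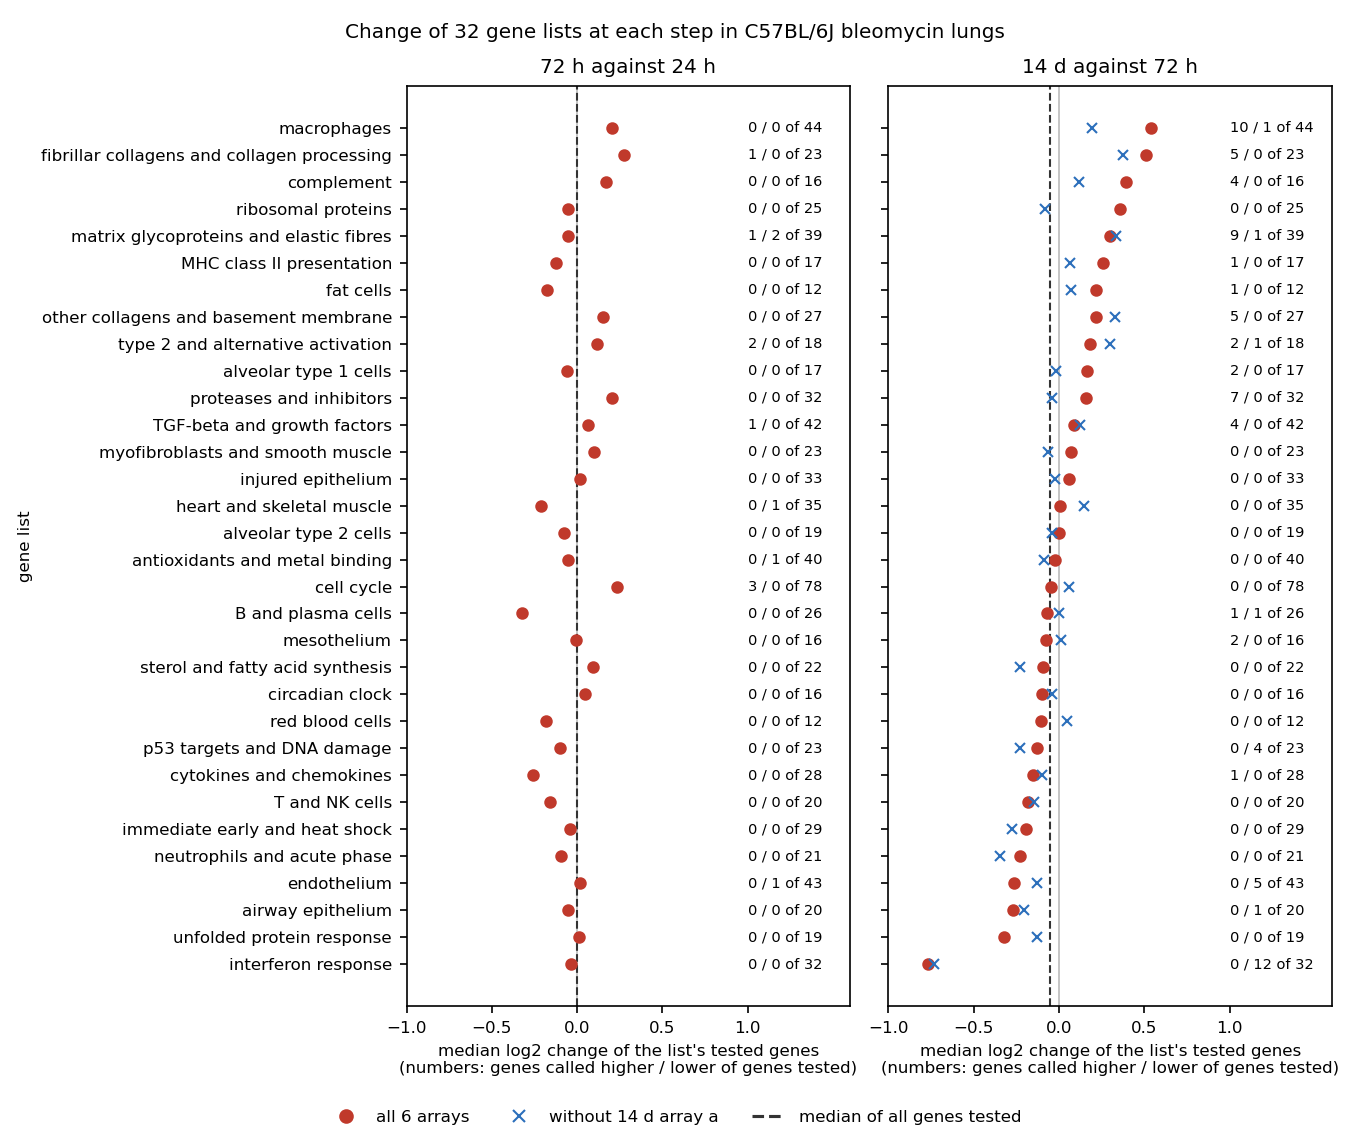
Median log2 change of each of 32 gene lists at the step from 24 h to 72 h (left) and from 72 h to 14 d (right) in C57BL/6J bleomycin lungs. Red circles use all 6 arrays, blue crosses leave out array a of 14 d, the dashed line is the median of all 6464 genes, and the numbers give the genes called higher and lower of those tested. The interferon list is lowest at the second step with or without array a, at -0.77 and -0.73, while the macrophage list moves from 0.54 to 0.19.

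Several genes often followed in fibrotic lungs did not pass the test at either step. Col1a1, the other type I collagen chain, read 5045 and 4895 at 24 h, 6569 and 7540.1 at 72 h, and 15562 and 6859 at 14 d, with steps of 0.49 (SE 0.29, adjusted p = 0.48) and 0.55 (SE 0.29, adjusted p = 0.29), and rose over the whole interval by 1.04 (SE 0.29, adjusted p = 0.031). A second probe set of Col1a1 gave 0.73 over the whole interval, not called (adjusted p = 0.080). Col3a1, of type III collagen, read 3552 and 3014 at 24 h, 4624 and 5091 at 72 h, and 9591 and 4556 at 14 d. Col3a1 rose over the whole interval by 0.9958 (SE 0.25, adjusted p = 0.020), with 2 other probe sets at 1.83 (called) and 0.13 (not called). For both collagens array a of 14 d is far above array b, and array b is close to the 72 h arrays. Acta2, smooth muscle actin of myofibroblasts and vessels, read 4141 and 3765 at 24 h, 4983 and 2722 at 72 h, and 4041 and 4147 at 14 d and gave 0.051 (SE 0.28, adjusted p = 0.93) over the whole interval. Acta2 has no order between the times, as its 72 h arrays span the others. Fn1, fibronectin, read 1461 and 1467 at 24 h, 1348 and 1631 at 72 h, and 1914 and 834 at 14 d and gave -0.19 (SE 0.37, adjusted p = 0.78). Timp1, an inhibitor of metalloproteases, read 3891 and 5438 at 24 h, 6046 and 4796 at 72 h, and 13520.0 and 4599.9 at 14 d and gave 0.77 (SE 0.44, adjusted p = 0.30), with only array a raised at 14 d. Blmh, the hydrolase that inactivates bleomycin, read 2138 and 2216 at 24 h, 1899 and 1843 at 72 h, and 1644 and 2148 at 14 d and gave -0.20 (SE 0.15, adjusted p = 0.44). Spp1 was not analysed here.

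Ordered by the time of their highest level, more genes lay at the ends of the course than at 72 h. Across the 3 times 723 probe sets (8.3%) and 545 genes (8.43% of 6464) passed the F test, and among them 209 were highest at 24 h, 96 at 72 h and 240 at 14 d, which describes the means and is not itself a test. A peak set apart, called against both other times, was found for 11 genes at 24 h (0.17%), 1 gene at 72 h (0.0155%) and 89 genes at 14 d (1.38%). A trough set apart was found for 11 genes at 24 h (0.17%), 4 at 72 h (0.0619%) and 81 at 14 d (1.25%). The 11 peaks at 24 h included Eln, Ciapin1, Clps, Gpx2, Syt5 and Vnn1 with the largest margins. For Eln this holds for 1 probe set only. The other was called higher at 14 d than at 72 h and than at 24 h, by 2.09 and 2.57 (limma adjusted p = 0.0033 and 0.00032). Clps, pancreatic colipase, read 320.2 and 382 at 24 h, 72.0 and 103 at 72 h, and 83.4 and 99.1 at 14 d, and Syt5, a vesicle calcium sensor, read 364 and 232 at 24 h, 67.4 and 87.6 at 72 h, and 65.6 and 89.3 at 14 d. Both are dim at the later times. The largest margins at 14 d were those of Mmp12, H1f10, Igfbp3, Fst, Fbln2 and C1qc. The 11 troughs at 24 h held Arg1, Ccn2, Col5a2, Peg3, Crct1 and the cell cycle genes Ccnb2, Cks1b and Kif22. Of the 81 troughs at 14 d, 12 were among the 32 interferon genes (37.5%) and 4 among the 23 p53 genes (17.4%). They are the same members that were called lower between 72 h and 14 d. Vnn1 alone was called lower at each step, and its second call was lost in 10 of 17 alternatives. The first-step calls of Clps and Gpx2 were lost in 9 of 16 and in 12 of 17. Without array a of 14 d, 12 genes had a peak at 14 d, 10 of them among the 89, and 7 had a peak at 24 h, 3 of them among the 11.

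**Figure D5:**
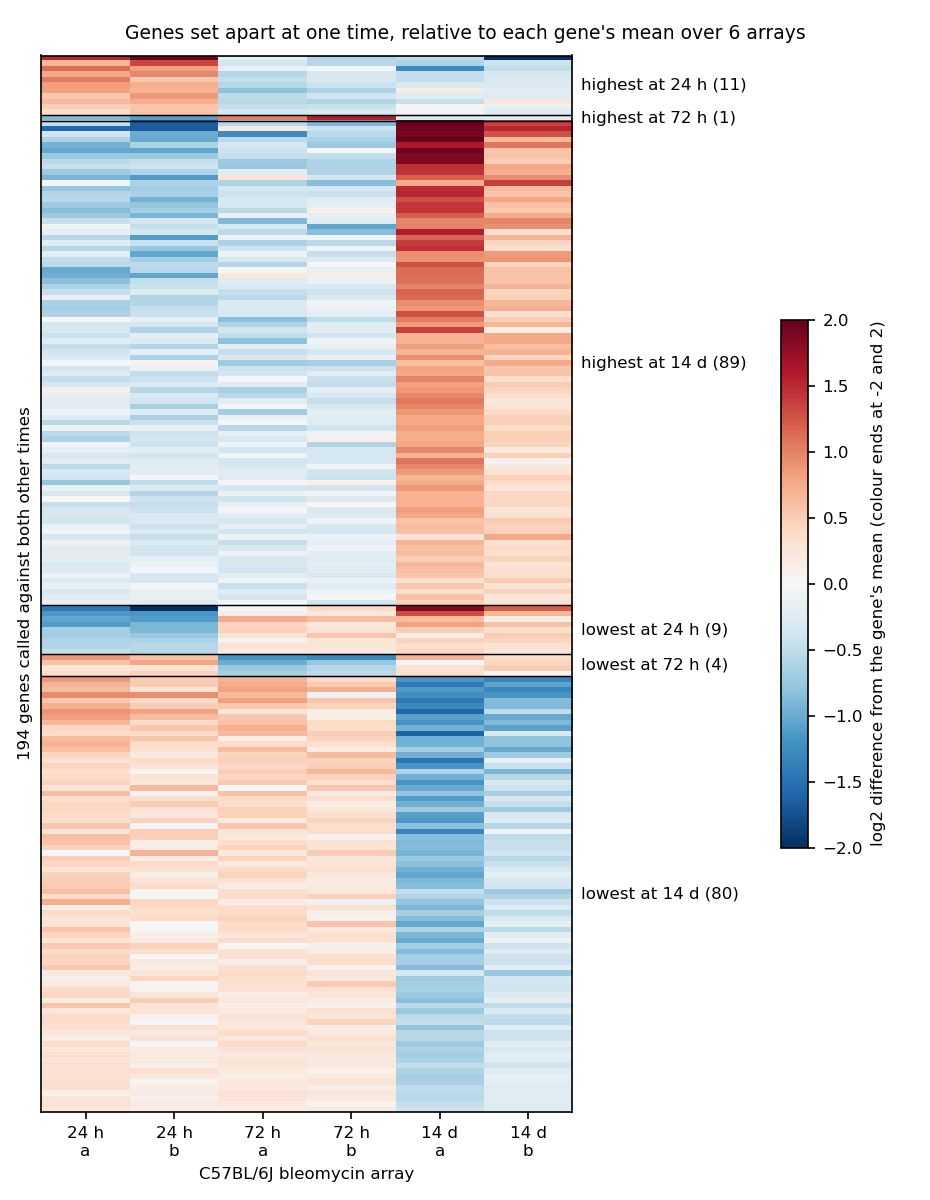
Log2 intensity of 194 genes set apart at 1 time, each relative to its own mean over the 6 C57BL/6J bleomycin arrays (columns), red above and blue below that mean. Blocks from the top are genes highest at 24 h (11), at 72 h (1) and at 14 d (89), then those lowest at 24 h (9, without Ccn2 and Nt5dc2, which are shown above), at 72 h (4) and at 14 d (80, without Vnn1). Array a of 14 d is the deepest red column in the third block, and array b is paler for most of these genes.

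Set beside the same steps in BALB/c bleomycin lungs, few differences passed the test. Between 24 h and 72 h limma called 0 of 8710 probe sets for a difference between the strains (0%), with 525 at an unadjusted p under 0.05 and a smallest adjusted p of 0.42. Between 72 h and 14 d it called 3 (0.0344%), with 1523 at an unadjusted p under 0.05. Usp18 on the BALB/c bleomycin arrays read 652 and 681 at 24 h, 893 and 1151 at 72 h, and 659 and 934 at 14 d, with both 14 d arrays inside the range of the earlier ones, and its step differed between strains by -1.53 (SE 0.24, adjusted p = 0.040). Fbln2 on the BALB/c bleomycin arrays read 497 and 413 at 24 h, 434 and 436 at 72 h, and 452 and 609.5 at 14 d, all within a narrow range, and its step differed by 1.63 (SE 0.28, adjusted p = 0.047). Rps28, a ribosomal protein, differed by 2.59 (SE 0.42, adjusted p = 0.040), where the BALB/c arrays of 14 d read 3242 and 1400.5 and the C57BL/6J ones 14746 and 8467, with 8648 and 9959 and 7962 and 7540.1 at 72 h. Of 32 interferon genes 1, Usp18, was called for a difference between strains at this step. Other genes that fell or rose in C57BL/6J did not pass: Ifit1 on BALB/c bleomycin arrays read 533 and 488 at 24 h, 829 and 981 at 72 h, and 589.6 and 945 at 14 d, with a strain difference in the second step of -1.53 (SE 0.30, adjusted p = 0.054), and Isg15 read 1173 and 1156 at 24 h, 1311 and 1473 at 72 h, and 1192 and 1184 at 14 d, with -1.15 (SE 0.23, adjusted p = 0.054). The BALB/c arrays stay within a narrow band for Isg15, and the differences for both genes missed the threshold. Fst had a strain difference of 1.32 (SE 0.48, adjusted p = 0.18) and Mmp12 of 1.12 (SE 0.56, adjusted p = 0.31) at this step. All 3 calls between strains were lost without array a of 14 d.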

How the data were processed

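Total RNA of 24 mouse lung samples was hybridised to Affymetrix arrays, and the deposited table holds 1 linear intensity for each probe set and array. The sources used here do not give how the authors summarised probes or scaled arrays. All arrays share 1 trimmed mean, so a change common to most genes would not be seen, and the number of arrays limits the precision. The table has 12488 probe sets, of which 66 controls were left out. Of the other 12422, 10833 had 1 gene name in GEO's platform annotation, 396 several and 1193 none, and 10817 were matched to RefSeq (GRCm38.p6) by gene identifier.

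Log2 values were taken after adding 92 to each intensity. Probe sets above 225.7, the 40th percentile, on at least 2 arrays were tested (8710). limma 3.58.1 in R 4.3.3 fitted 12 group means with an intensity trend and 12 residual degrees of freedom. Contrasts were 2-sided with Benjamini-Hochberg adjustment, and an F test covered the 3 times. A gene was represented by its brightest probe set with a single name.

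Genes named were the 8 that rose and the 8 that fell most at each step, up to 4 called members of a list with the smallest p, the 6 largest margins for each peak, 4 troughs at 72 h, strain differences, and a fixed set (Cdkn1a, Tgfb1, Timp1, Col1a1, Col3a1, Fn1, Acta2, Blmh). Ifit3, Fbln2 and others meet several parts of this rule. The members and the 32 gene lists (1242 genes, 802 tested) were chosen with earlier results of these data known, and the saline step was added as context after the values were seen. Lists were described by counts and medians, with no test of a list. Alternatives covered the scaling, the offset, the filter, the brightest probe sets, the variance model, the arrays in the fit, a replicate block by array letter and each array left out. The labels do not say whether the letters a and b pair arrays across times. The differences between a and b of 2 times correlated weakly, at 0.052, -0.18 and 0.026.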

Additional observations from a re-analysis of the deposited data

Results flagged for a closer look

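At the step from 72 h to 14 d the strains differed by limma's interaction test for 3 of 8710 probe sets. Rps28, a protein of the small ribosomal subunit, differed by 2.59 on the log2 scale (C57BL/6J minus BALB/c, adjusted p = 0.040). Its C57BL/6J step was 0.52 and its BALB/c step -2.07, so most of the difference lies in BALB/c, and other probe sets of Rps28 gave 2.23 and 0.36, not called. Fbln2 differed by 1.63 (adjusted p = 0.047), with steps of 1.86 in C57BL/6J and 0.23 in BALB/c. Usp18 differed by -1.53 (adjusted p = 0.040), with steps of -1.87 and -0.33. Both 14 d arrays of C57BL/6J are on the same side of both 72 h arrays for each of the 3 genes. Without array a of C57BL/6J 14 d the adjusted p values were 0.17, 0.17 and 0.17.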

How the results depend on the processing

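Every alternative below was planned, and 0 of the called results of named genes reversed under any of them. Of 178 such results, 158 remained called after quantile normalization, 165 after cyclic loess, 136 with array weights and 66 with only the arrays compared in the fit, and without array a of 14 d 56 of 156 remained. For 72 h against 24 h the count of 39 probe sets became 63 with an offset of 276, 21 with the filter at the 60th percentile, 474 with array weights, 2 with only the arrays compared, 24 without the 4 saline arrays of 72 h, and 4 to 9 with 1 array left out. For 14 d against 72 h the count of 382 became 166 with array weights, 45 with only the arrays compared and 53 to 1139 with 1 array left out, that is 72 and 91 without 72 h arrays a and b, 53 without 14 d array a and 1139 without 14 d array b. For 14 d against 24 h the count of 755 became 406, 189 and 160 to 1529 under the same settings, with 259 and 219 without 24 h arrays a and b. The 723 probe sets of the F test became 82 with only the arrays compared and 219 to 1449 with 1 array left out. Peaks at 24 h, 16 probe sets, became 8 with an offset of 46, 25 with an offset of 276, 6 at the 60th percentile, 56 with array weights, 1 with only the arrays compared, 9 without the saline arrays of 72 h and 1 to 24 with 1 array left out. Peaks at 72 h, 2 probe sets, became 1 with an offset of 46, 4 with no filter, 1 at the 60th percentile, 5 with array weights, 1 with only the arrays compared, 1 without the saline arrays of 72 h and 1 to 5 with 1 array left out. Peaks at 14 d, 112 probe sets, became 52 with array weights, 13 with only the arrays compared and 14 to 271 with 1 array left out. The strain difference in the first step, 0 probe sets, became 1 with an offset of 276, 5 with array weights, 1 without the saline arrays of 72 h and 0 to 3 with 1 array left out. That in the second step, 3 probe sets, became 11 after quantile normalization, 7 after cyclic loess, 6 with an offset of 276, 0 with no filter, 0 without the brightest probe sets, 6 with no intensity trend, 1 with array weights, 0 with only the arrays compared, 5 without the saline arrays of 72 h, 0 with the replicate block and 0 to 661 with 1 array left out (661 without 14 d array b of C57BL/6J, 330 without 14 d array a of BALB/c). With the replicate block 35, 330 and 704 probe sets were called for the 3 pairs of times. The cause of these changes was not tested, except that fewer arrays in the fit leave fewer residual degrees of freedom. Dim genes are limited by the offset and saturation cannot be read from the deposited values.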

Other observations

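Some lymphocyte genes were lower at 14 d than at 24 h in these lungs. Of 26 B and plasma cell genes 5 were called lower over that interval and 0 higher, and of 20 T and NK cell genes 3 were lower and 0 higher. Of all genes, 4.76% were called lower over it. Cd79a, a chain of the B cell receptor complex, read 1505 and 1539 at 24 h, 713 and 816 at 72 h, and 643 and 794 at 14 d. Cd79a fell by 0.9993 (SE 0.23, adjusted p = 0.014), with its 72 h and 14 d arrays together below 24 h. Cd79b, the partner chain, read 1192 and 1119 at 24 h, 1235 and 1278 at 72 h, and 420.1 and 590.4 at 14 d. Cd79b fell by 1.19 (SE 0.24, adjusted p = 0.010) at the second step. Ms4a1, which encodes CD20, read 1964 and 1906 at 24 h, 1396 and 1442 at 72 h, and 451 and 1168 at 14 d. Ms4a1 fell by 1.29 (SE 0.28, adjusted p = 0.0084). Igha, the heavy chain of IgA, went the other way: it read 1202 and 2275 at 24 h, 849 and 1268 at 72 h, and 4459 and 2367 at 14 d. Igha rose by 1.56 (SE 0.36, adjusted p = 0.020) at the second step, with 0.38 on a dimmer second probe set, not called. Gzma, a granzyme of cytotoxic cells, read 453 and 531 at 24 h, 209.5 and 411 at 72 h, and 82.7 and 258 at 14 d. Gzma fell by 1.24 (SE 0.34, adjusted p = 0.031), and Gata3, a transcription factor of T cells, read 401 and 339 at 24 h, 309 and 325 at 72 h, and 192 and 169.8 at 14 d. Gata3 fell by 0.76 (SE 0.19, adjusted p = 0.022). Without array a of 14 d 0 members of either list were called in any comparison with 14 d.

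Reg3g, Cxcl1, Itih4 and Chil1 come from different lists and were lower at 14 d than at 24 h. Of 21 neutrophil and acute phase genes 1 (Itih4) was called lower and 0 higher, where 4.76% of all genes were lower, and 9 were highest at 24 h, 6 at 72 h and 6 at 14 d by their means. Reg3g, an antibacterial lectin of epithelium, read 4004 and 2194 at 24 h, 1650.0 and 1299 at 72 h, and 503 and 515 at 14 d against 76.4 to 2975 on saline arrays, fell by 2.35 (SE 0.43, adjusted p = 0.0027) over the whole interval, and was called without array a (adjusted p = 0.035). Cxcl1, a neutrophil chemokine, read 3944 and 2445 at 24 h, 892 and 755 at 72 h, and 528 and 269 at 14 d. Cxcl1 fell by 2.76 (SE 0.82, adjusted p = 0.046), a call lost in 11 of 17 alternatives, and its saline arrays ranged from 95.2 to 3719.6. Itih4, an acute phase protein, read 2081 and 1271 at 24 h, 581 and 593 at 72 h, and 148 and 467 at 14 d. Itih4 fell by 2.23 (SE 0.40, adjusted p = 0.0021). Without array a the adjusted p was 0.16 for Cxcl1 and 0.064 for Itih4. Chil1, a chitinase-like protein of epithelium and macrophages, read 7999 and 7991 at 24 h, 3993 and 3889 at 72 h, and 860.0 and 3019.6 at 14 d. Chil1 fell by 2.23 (SE 0.38, adjusted p = 0.0014), from a level inside its saline range of 4906 to 13033 to one below it, and was called without array a (adjusted p = 0.023). In each of these 4 genes both 24 h arrays are above both 72 h arrays, and no first step was called. Gclc, which makes the glutathione precursor, read 3948 and 3758 at 24 h, 3256 and 3049.8 at 72 h, and 2469 and 1833 at 14 d against 929 to 2114 on saline arrays and fell by 0.83 (SE 0.18, adjusted p = 0.011), also called without array a (adjusted p = 0.018). Heat shock genes Hsph1 and Hspa1b, chaperones of stressed cells, fell over the whole interval by 1.48 (SE 0.32, adjusted p = 0.0085) and 0.92 (SE 0.25, adjusted p = 0.033), 2 of 29 immediate early and heat shock genes, a share near that of all genes called lower. Neither was called without array a (adjusted p = 0.18 and 0.12).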
